A study of Mus musculus with 6 samples.

Results

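Small nucleolar RNAs (snoRNAs) and small Cajal body RNAs (scaRNAs) were taken from the array by gene symbol, through the platform annotation. Probe sets naming a single gene were kept, symbols beginning Snord, Snora or Scarna followed by a digit were selected, and a gene with several probe sets was represented by the one with the highest mean over the 6 arrays. This gave 54 members among 19938 genes: 31 box C/D RNAs (Snord), 20 box H/ACA RNAs (Snora) and 3 Cajal body RNAs (Scarna). The probe set of a gene was thus selected on its mean level over the arrays of both genotypes, and the genotype difference did not enter the rule. The group itself was chosen with earlier results of these arrays known.

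The samples were oocytes of the fully-grown, germinal-vesicle stage, which no longer transcribe, from 23-day-old females of the C57BL/6J;C3HeB/FeJ strain. The Marf1 mutant females carried an ENU (chemical mutagen) allele of Marf1 on both copies, written Marf1 ENU/ENU, and the wild-type females were Marf1+/+, with 3 samples and 3 arrays in each group. All females had received 5 IU of equine chorionic gonadotropin at 21 days of age, 46 hours before collection, and the oocytes had been stripped of cumulus cells. Whether the samples of a group came from separate animals is not stated in the labels, so the spread behind every p-value is that of these samples and could be technical.

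Most vertebrate snoRNAs are not transcribed from genes of their own. They are cut from introns of a host transcript after splicing, when the looped intron is opened and its ends are trimmed back to the snoRNA, which proteins protect. Box C/D RNAs guide fibrillarin to add methyl groups to the sugars of ribosomal RNA, and box H/ACA RNAs guide dyskerin to turn uridines into pseudouridines. The scaRNAs do the same for the spliceosomal small nuclear RNAs in Cajal bodies, and a few snoRNAs, U8 among them, are needed for ribosomal RNA to be cleaved at all. MARF1 is an RNA-binding protein with a ribonuclease domain that oocytes need to resume meiosis.

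The values are log2 expression per probe set after robust multi-array averaging (RMA). A difference of 1 is therefore 2-fold. It is relative to the other RNAs on the same array and is blind to how much RNA an oocyte held. Marf1 itself read 5.98, 6.40 and 6.16 in mutant replicates 1 to 3, against 9.21, 9.16 and 9.31 in wild-type replicates 1 to 3, so that the level fell by 3.05 on the log2 scale (SE 0.15, limma adjusted p = 1.00e-04). Over all probe sets, pairs of arrays had r = 0.970 to 0.985 within the mutant, 0.984 to 0.985 within wild type and 0.950 to 0.961 between genotypes. Mutant replicate 3 stood apart, its values over all probe sets having an SD of 2.04, while the other arrays had 2.14 to 2.20. Of 18 oocyte markers, all lay above the receptor-gene level, a mark for dim signal set at the 95th percentile of 1190 olfactory and vomeronasal receptor genes (4.51 on the log2 scale).

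Markers of other ovarian cells were summed on the linear scale over each list. The 15 cumulus and granulosa genes measured summed to 1409 to 1766 in the mutant arrays, against 731 to 800 in the wild-type arrays, and 2 of them were higher in the mutant. These were Nr5a2, a nuclear receptor (10.43, 10.12 and 9.96 in the mutant, against 8.89, 8.72 and 8.53 in wild type), and Kitl, the ligand of Kit. Nr5a2 was the brightest gene of the list and made up most of the mutant sum, so the higher sum largely follows this gene. The median log2 fold change over the 15 genes was -0.03. On average 8 of the 15 lay above the receptor-gene level (Nr5a2, Gja1, Esr2, Foxl2, Has2, Inhba, Kitl and Inha) and 7 below it, among them Fshr and Amh. Gja1 averaged 5.65 in the mutant and 5.59 in wild type, and Foxl2 averaged 5.08 in the mutant and 5.14 in wild type. The 8 theca and stroma genes summed to 173 to 206 in the mutant, against 168 to 192 in wild type, and the 6 blood, immune and endothelial genes to 158 to 214 in the mutant, against 235 to 255 in wild type. In these lists Pdgfra was higher in the mutant (log2 fold change 0.67, adjusted p = 0.0299) and Pecam1 lower (-1.07, adjusted p = 0.0144). Among the oocyte markers Sohlh1 was higher (0.95, adjusted p = 0.0109) and Kit lower (-1.28, adjusted p = 0.00419). No marker of any list was listed at 0, which on this log2 scale does not show that its RNA was present. The part of other cells in any result on these RNAs was not tested, and in bulk samples fewer cells of a type cannot be told apart from less RNA per cell.

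Lower levels in mutant oocytes were found for 9 of the 54 members (16.7%) and higher levels for 0, at an adjusted p under 0.05 over all 35556 probe sets in limma. Among all genes 4.04% passed as lower and 6.40% as higher. The 9 were 5 box C/D RNAs, 3 box H/ACA RNAs and 1 Cajal body RNA. At an unadjusted p under 0.05, 14 members were lower and 2 higher, against 13.5% and 11.0% of all genes.

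All the large differences ran one way. At least 2-fold lower were 10 members, against 1.23% of all genes, and at least 2-fold higher were 0, against 4.78%. The median log2 fold change was -0.18 over the members and -0.04 over all genes. A negative difference was seen in 40 of the 54 members (74.1%), against 56.1% of all genes. The median over the members was 3.30, 3.38 and 3.62 on the mutant arrays, against 3.98, 3.80 and 3.74 on the wild-type arrays, without overlap. In 20 members every mutant value lay below every wild-type value (37.0%, against 17.7% of all genes), in 4 every mutant value lay above (7.41%, against 12.9%), and in 30 the genotypes overlapped.

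**Figure D1:**
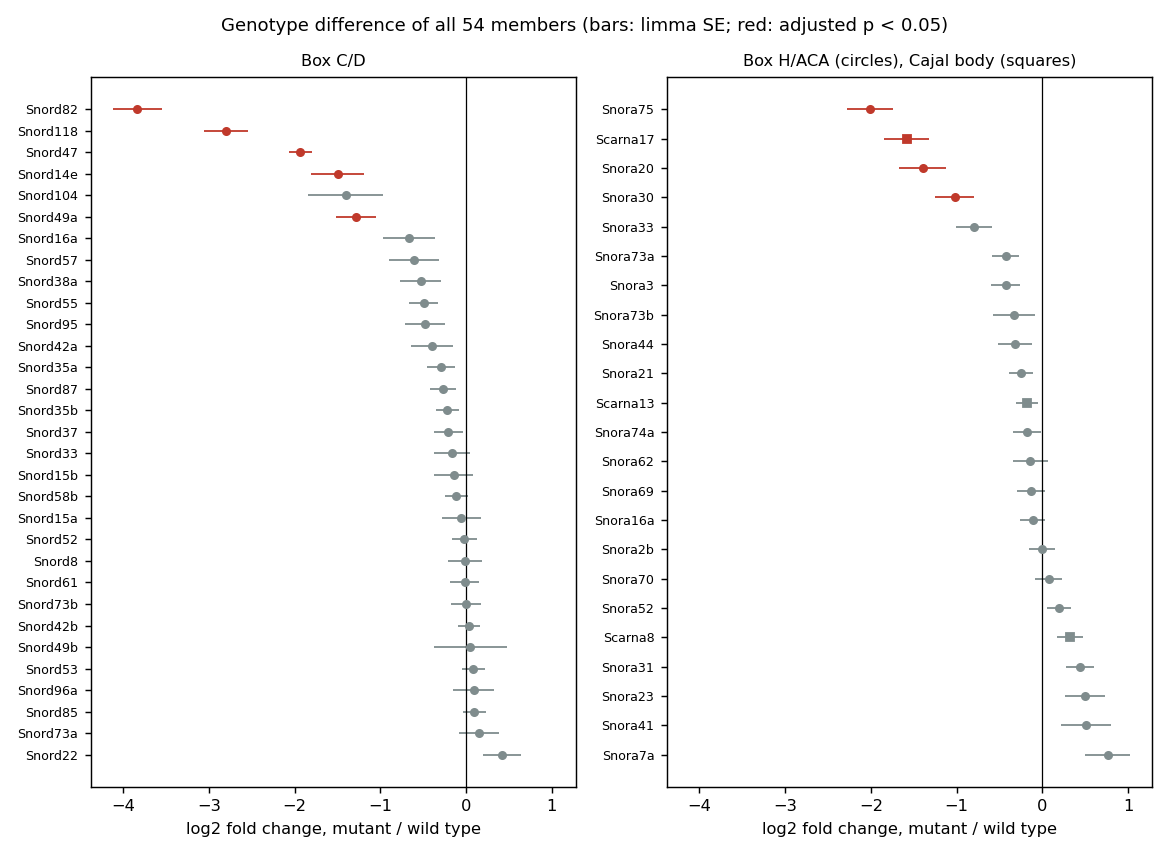
Log2 fold change (horizontal axis, mutant over wild type) of all 54 members, box C/D RNAs in the left panel, box H/ACA (circles) and Cajal body RNAs (squares) in the right panel. Bars are limma standard errors over 3 arrays a genotype, and red marks the 9 members past the adjusted threshold, all on the negative side and reaching -3.83.

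Among the box C/D RNAs, Snord82 (probe set 10356333) read 2.92, 3.48 and 2.42 in mutant replicates 1 to 3, against 6.61, 7.14 and 6.57 in wild-type replicates 1 to 3. Its log2 fold change was -3.83 (SE 0.29, 14.3-fold lower, adjusted p = 3.17e-04). The genotypes were separated by more than 3 log2 units even at their nearest values. Snord118, the U8 RNA, without which the precursor of the large-subunit ribosomal RNAs is not cut, read 2.25, 3.07 and 2.52 in the mutant, against 5.09, 5.77 and 5.38 in wild type. It fell by 2.80 on the log2 scale (SE 0.26, adjusted p = 7.53e-04). Snord47 read 2.61, 2.59 and 2.84 in the mutant, against 4.68, 4.57 and 4.59 in wild type, with the smallest standard error of the RNAs that fell (log2 fold change -1.93, SE 0.14, adjusted p = 2.71e-04).

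Snord14e belongs to the U14 family, which in yeast is needed to process the small-subunit ribosomal RNA. It read 5.33, 4.16 and 5.00 in the mutant, against 6.09, 6.65 and 6.25 in wild type (log2 fold change -1.50, SE 0.30, adjusted p = 0.0255). Snord49a, a methylation guide, read 4.37, 4.23 and 4.46 in the mutant, against 5.14, 6.07 and 5.71 in wild type (log2 fold change -1.29, SE 0.24, adjusted p = 0.0170). For both RNAs all mutant values lay below all wild-type values. Snord104 had the same ordering, at 5.22, 4.21 and 5.24 in the mutant, against 5.87, 5.78 and 7.23 in wild type. Its spread was wider, and a log2 fold change of -1.40 did not pass (SE 0.44, adjusted p = 0.110).

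Of the box H/ACA RNAs, Snora75 read 3.67, 3.85 and 3.84 in the mutant, against 6.40, 5.29 and 5.71 in wild type (log2 fold change -2.01, SE 0.27, adjusted p = 0.00397). Snora20 read 3.06, 2.61 and 3.17 in the mutant, against 4.09, 4.93 and 4.01 in wild type (log2 fold change -1.40, SE 0.27, adjusted p = 0.0226). Snora30 read 4.24, 4.42 and 4.38 in the mutant, against 5.13, 5.89 and 5.09 in wild type (log2 fold change -1.02, SE 0.23, adjusted p = 0.0358). None of these 3 RNAs overlapped between genotypes, and each was more scattered in wild type than in the mutant. The 3 Cajal body RNAs differed from each other. Scarna17 read 7.03, 6.23 and 6.65 in the mutant, against 8.65, 8.03 and 7.98 in wild type, and fell by 1.58 on the log2 scale (SE 0.26, adjusted p = 0.0105). Scarna13 (-0.18, SE 0.13, adjusted p = 0.531) and Scarna8 (0.32, SE 0.16, adjusted p = 0.313) did not pass.

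**Figure D2:**
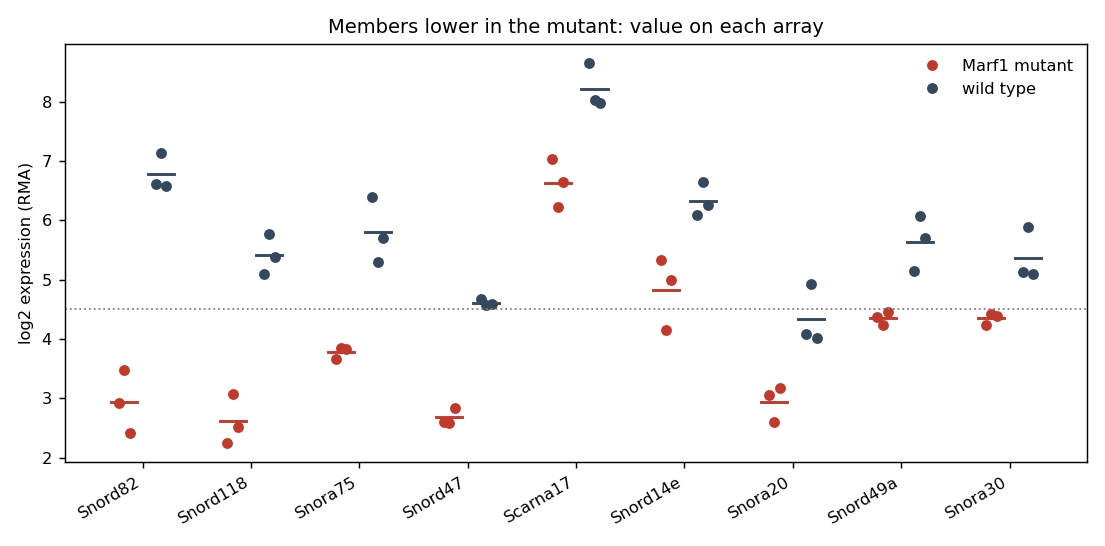
Log2 expression (vertical axis) of the 9 members lower in the mutant, each array as a point, Marf1 mutant left of wild type, with group means as short lines (n = 3 each). The dotted line is the receptor-gene level of 4.51, and the mutant means of all but Scarna17 and Snord14e lie below it.

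The calls rested on single arrays to different degrees. Snord82, Snord118, Snord47, Snora75 and Scarna17 passed in each of the 6 fits that left out 1 array. Snora20 was lost without mutant replicate 1, mutant replicate 2 or wild-type replicate 1 (adjusted p = 0.0609, 0.0708 and 0.0520). Snord49a was lost without mutant replicate 1, mutant replicate 2 or wild-type replicate 3 (0.0570, 0.0603 and 0.0718). Snord14e was lost without any 1 of the wild-type replicates (0.0620, 0.0872 and 0.0814), and Snora30 without any array other than wild-type replicate 2 (0.0594 to 0.109). None of these members changed sign in any of these fits. In the fit of all 6 arrays without variance shrinkage, only Snord82, Snord118 and Snord47 kept the call.

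Many members were dim. Both genotype means of 36 members lay below the receptor-gene level, and 43 had at least the lower mean below it, so that the falls of Snord82, Snord118, Snora75, Snord47, Snora20, Snord49a and Snora30 could understate the true differences and cannot be ranked. Alone of the RNAs that fell, Snora20 is among the 36. Its means were 2.95 in the mutant and 4.34 in wild type, both in the dim range, although wild-type replicate 2 read 4.93. Above the level lay 11 members in the mutant and 18 in wild type. Of these, 7 were above it in wild type only and 0 in the mutant only. On single arrays 9 to 11 members exceeded the level in the mutant, against 17 to 21 in wild type, while the median over all genes was 4.93 to 5.09 in the mutant, against 4.96 to 5.01 in wild type. The share of all genes that crossed the level was not taken, so these counts only describe the falls already given.

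The few higher values were small. In 4 members every mutant value was above every wild-type value, and the largest of these differences was that of Snora7a, at 6.09, 5.93 and 5.24 in the mutant, against 4.60, 5.20 and 5.18 in wild type (log2 fold change 0.76, SE 0.27, adjusted p = 0.153). It passed only without mutant replicate 3 (log2 fold change 1.02, adjusted p = 0.0397). Snora31 had a log2 fold change of 0.44 (SE 0.17), Scarna8 one of 0.32 and Snora52 one of 0.19 (SE 0.14). No box C/D RNA lay wholly above wild type, and its highest difference was 0.42.

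There were 6 members with 2 probe sets each. For Snord118, Snora30 and Scarna17 both probe sets held identical values on every array, so the second adds no evidence. For Snora3, Snora21 and Snord58b the 2 probe sets differed by at most 0.20 on an array, and their log2 fold changes by at most 0.06. A further 41 probe sets named a snoRNA or scaRNA together with at least 1 other gene and were not members. Of these 3 were lower and 0 higher (7.32% lower, against 3.00% lower and 4.78% higher of all probe sets). Each of the 3 is annotated to RNAs of the U14 family along with a protein gene, so the annotation does not tell which RNA they read. One, annotated to Snord14a and Rps13, read 3.94, 3.97 and 4.85 in the mutant, against 7.04, 7.46 and 6.85 in wild type (log2 fold change -2.86, adjusted p = 0.00102). The other 2, annotated to Snord14c, Snord14d and Hspa8, had log2 fold changes of -2.98 and -3.04 with nearly the same values on each array. The 3 probe sets naming Hspa8 alone had log2 fold changes between 0.14 and 0.18. The 24 probe sets annotated to Snord116 genes of the imprinted Prader-Willi region had log2 fold changes between -0.32 and -0.10, and 0 passed, with 0 at an unadjusted p under 0.05 in limma. Most of them held identical values on every array, so they are not 24 separate readings. They are 24 of the 41 probe sets behind the share of 7.32%.

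MicroRNA genes passed in neither direction. Of 300 microRNA genes on the array 0 were lower and 0 higher in limma, against 4.04% and 6.40% of all genes. At an unadjusted p under 0.05 in limma they numbered 4 and 6, against 13.5% and 11.0% of all genes. Their median log2 fold change was 0.03. Of all genes with a wild-type mean below the receptor-gene level, 0.13% passed as lower and 2.71% as higher. A gene dim in wild type has little room to fall, so this filter itself favours higher calls. Of all genes whose mean over the 6 arrays lay below the level, 0.34% passed as lower and 0.58% as higher. Whether the microRNA probe sets were as dim was not tested, so their lack of calls is not set against the falls of the members. There were 2 members that overlap microRNA hairpins in the RefSeq annotation (GRCm38.p6). Scarna13 contains all of the Mir3069 hairpin and Snord33 part of the Mir5121 hairpin, and neither member passed.

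The rule did not use the genes that contain the members, and these gave a separate reading. By position in the RefSeq annotation 53 of the 54 members lay inside a larger gene, 43 such host genes in all. Of these, 25 were measured by a probe set of their own. A host with several probe sets was read at the brightest, and whether that probe set lies beside the member was not checked. The annotation table gives no strand, so containment was taken without it. Snord118 lay inside no other gene. Ribosomal protein genes contained 21 members, of which 0 passed in either direction in limma, with 3 lower and 1 higher at an unadjusted p under 0.05 and a median log2 fold change of -0.15. Nearest to the threshold of these was Snora33, inside Rps12 and chosen after its values were seen, at -0.80 (SE 0.21, adjusted p = 0.0661). Other protein-coding genes contained 18 members, of which 5 fell (27.8%), and long non-coding RNA genes 14, of which 3 fell (21.4%), against 4.04% of all genes. At that share of all genes a count of 0 among 21 is near the background. Whether the kinds of host differ was not tested.

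Of the 9 RNAs that fell, 6 had a measured host, and 4 of these 5 host genes did not pass. Ncl, which encodes the nucleolar protein nucleolin and contains both Snord82 and Snora75, read 9.99, 10.03 and 9.40 in the mutant, against 9.92, 9.75 and 9.71 in wild type. Its log2 fold change was 0.01 (95% interval -0.44 to 0.47, adjusted p = 0.986), with overlapping genotypes. Gas5, a non-coding RNA known mainly as a carrier of box C/D RNAs and the host of Snord47, read 10.44, 10.49 and 10.49 in the mutant, against 10.16, 10.48 and 10.15 in wild type (log2 fold change 0.21, 95% interval -0.13 to 0.55). This was the brightest of 4 Gas5 probe sets, whose log2 fold changes ran between -0.26 and 0.21. The other 3 lay below the receptor-gene level, 1 of them with every mutant value below every wild-type value (-0.26), and of the 4 probe sets 0 passed in limma, with 0 at an unadjusted p under 0.05.

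The chaperone gene Hspa8, host of Snord14e, had a log2 fold change of 0.16 (95% interval -0.21 to 0.53), and Tcp1, a subunit of the chaperonin that folds tubulin and actin and the host of Snora20, one of 0.15 (-0.24 to 0.54). Neither passed, and for each of these hosts the interval excluded the fall of the RNA inside it. The value for Hspa8 is that of the brightest of 3 probe sets, whose log2 fold changes ran between 0.14 and 0.18, and 0 passed. Probe set 10584572 of Hspa8 had an SE of 0.32, against 0.16 for the probe set read. Srcap, a chromatin remodelling gene that contains Snora30, differed from the other 4 hosts in that it was lower. It read 6.31, 6.42 and 6.21 in the mutant, against 7.03, 7.04 and 6.97 in wild type (log2 fold change -0.70, SE 0.13, adjusted p = 0.0183), and lost the call without mutant replicate 1 or any 1 of the wild-type replicates. The hosts of Scarna17 and Snord49a had no probe set naming them alone. A probe set within an intron can read the mature RNA or the intron that holds it, and these arrays do not tell the forms apart.

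The difference between an RNA and its host was tested on each array for all 29 members with a measured host. The host's log2 value was subtracted and the genotypes compared by an exact permutation test, two-sided, whose smallest possible p with 3 against 3 is 0.10. After subtraction 10 members lay wholly below wild type and 2 wholly above. Without subtraction 17.7% of all genes lay wholly below and 12.9% wholly above, and no such share was made for subtracted values. Among the non-overlapping members were Snora23 (-0.90), Snora2b (-1.03), Snord37 (0.54) and Snord8 (0.63). For these the host passed the threshold in limma and the RNA did not. Every non-overlapping member gave the smallest exact p, and the lowest exact p adjusted over the 29 tests was 0.242. This design cannot pass the threshold for a single value. Shifts were -3.85 for Snord82 against Ncl, -2.14 for Snord47 against Gas5, -2.03 for Snora75 against Ncl, -1.66 for Snord14e against Hspa8 and -1.55 for Snora20 against Tcp1. Like the falls behind them, those of Snord82, Snord47, Snora75 and Snora20 cannot be ranked. Snora30 against Srcap shifted by -0.32, and its genotypes overlapped (exact p = 0.30). Across the 29 members the log2 fold changes of RNA and host correlated at r = 0.25 (Spearman 0.39), a description over points that share arrays and in 4 cases a host, and 15 had the same sign.

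**Figure D3:**
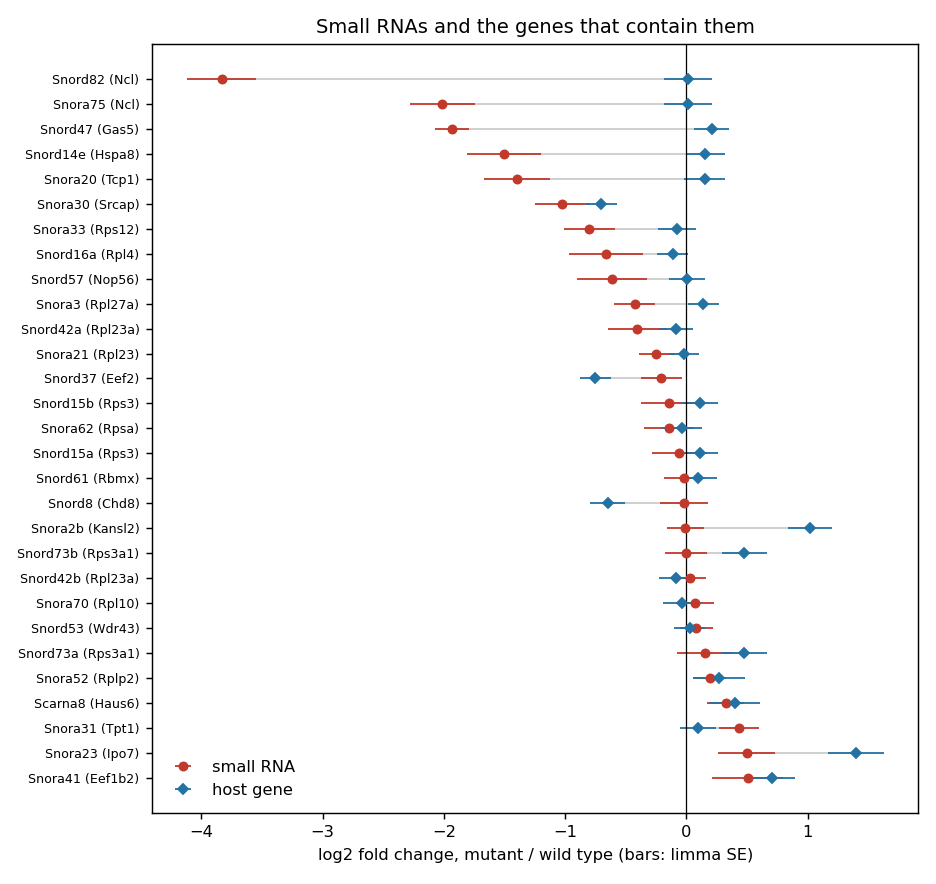
Log2 fold change (horizontal axis, mutant over wild type) of 29 small RNAs (circles) and of the gene that contains each (diamonds, name in brackets), joined by a grey line, with limma standard errors as bars. The upper rows show RNAs far to the left of hosts that sit near 0, and the hosts Ipo7 (1.40) and Kansl2 (1.02) lie to the right of their RNAs.

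Over all 25 measured hosts 3 were lower (12.0%, against 4.04% of all genes) and 2 higher (8%, against 6.40%). Srcap alone of these had an RNA past the threshold. Ipo7, a nuclear import receptor, rose by 1.40 (SE 0.23, adjusted p = 0.0108) while its Snora23 differed by 0.50 (adjusted p = 0.309). Kansl2, of a histone acetyltransferase complex, rose by 1.02 (adjusted p = 0.0136) while its Snora2b differed by -0.01. The translation elongation factor gene Eef2 and the chromatin remodeller gene Chd8 were lower by 0.75 and 0.65 on the log2 scale, and their RNAs Snord37 and Snord8 had log2 fold changes of -0.21 and -0.02. All 10 measured ribosomal protein hosts were within -0.11 and 0.48, and 0 passed, with 1 at an unadjusted p under 0.05 in limma. The RNAs and hosts of this paragraph were chosen after their values were seen. The call of Ipo7 was lost without wild-type replicate 3 (adjusted p = 0.0510), that of Eef2 without wild-type replicate 2 or 3, that of Kansl2 without any array other than mutant replicate 3 or wild-type replicate 3, and that of Chd8 without any 1 array.

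Members of the same host were compared in 10 hosts that contained 2 each, and the median distance between the log2 fold changes within a host was 0.18. Snord49b, which shares a non-coding host (2410006H16Rik) with Snord49a, read 5.20, 5.99 and 6.00 in the mutant, against 5.71, 6.53 and 4.81 in wild type, a log2 fold change of 0.05 (95% interval -0.94 to 1.03). On each array Snord49a minus Snord49b was -0.83, -1.76 and -1.54 in the mutant, against -0.57, -0.46 and 0.90 in wild type. The groups did not overlap, and the exact permutation test gave its smallest p of 0.10 (0.50 adjusted over the 10 hosts). Snord82 and Snora75, both from Ncl, lay below the receptor-gene level in the mutant (means 2.94 and 3.79), so their falls were not set against each other. In the other 8 hosts the genotypes overlapped.

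RefSeq start sites of the hosts are shown because host genes are known for transcripts that begin in a run of pyrimidines, the element of ribosomal protein mRNAs. Of the 7 hosts of RNAs that fell, 5 had an annotated start (GRCm38.p6). The 50 bases shown run 5′ to 3′ from 20 before the start to 30 after it, and capitals mark the motif CTTT wherever it occurs.
Gas5, downstream start, chr1:161035146-161035195, plus strand: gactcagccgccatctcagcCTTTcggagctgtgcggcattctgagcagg
Gas5, upstream start, chr1:161034581-161034630, plus strand: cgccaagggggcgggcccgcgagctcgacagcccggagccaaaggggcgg
2410006H16Rik, chr11:62602857-62602906, plus strand: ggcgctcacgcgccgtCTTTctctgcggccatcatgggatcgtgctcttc
Ncl, chr1:86359426-86359475, minus strand: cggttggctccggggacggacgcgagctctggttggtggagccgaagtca
Tcp1, chr17:12916309-12916358, plus strand: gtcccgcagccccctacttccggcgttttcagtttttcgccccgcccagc
Srcap, chr7:127511963-127512012, plus strand: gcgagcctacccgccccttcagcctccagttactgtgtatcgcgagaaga

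In Gas5 the motif begins at the first transcribed base of the downstream start, and in 2410006H16Rik it ends at the base just before the start, while the windows of Ncl, Tcp1 and Srcap hold none. From 10 bases before to 20 after a start, CTTT was present at 12 of 35 starts of 33 host genes (34.3%), against 11.6% of 32851 starts of all genes. On the other strand, read as AAAG, it was present at 1 host start (2.86%), against 11.3% of all starts. These shares describe the letters only, and the RNAs that fell came from hosts with the motif and from hosts without it.

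Proteins that bind, build and trim these RNAs were examined as 33 listed genes, of which 32 were measured. Of these, 7 were higher (21.9%, against 6.40% of all genes) and 3 lower (9.38%, against 4.04%), with a median log2 fold change of 0.02. The core proteins of box C/D particles did not pass. The methyltransferase gene Fbl differed by -0.46 on the log2 scale (SE 0.13, adjusted p = 0.0760), Nop56 by 0.00, Nop58 by 0.28 and Snu13 by 0.12. Of the 4 core proteins of box H/ACA particles 2 were lower. Dkc1, the pseudouridine synthase dyskerin, averaged 7.21 ± 0.34 in the mutant and 8.18 ± 0.15 in wild type (SD, n = 3 each, log2 fold change -0.97, SE 0.20, adjusted p = 0.0259), and Nop10, which binds it, fell by 0.77 (SE 0.13, adjusted p = 0.0103). Gar1 and Nhp2 had log2 fold changes of 0.00 and -0.05. The call of Dkc1 was kept in only 1 of the 6 fits that left out an array, the one without mutant replicate 1, and that of Nop10 was lost only without wild-type replicate 3.

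Genes of particle assembly and of Cajal bodies were higher where they passed. Of 9 assembly genes 3 rose and 0 fell. Ruvbl1, an ATPase of the assembly machinery, rose by 1.45 (SE 0.17, adjusted p = 0.00221), Nufip1, a box C/D assembly platform, by 1.23 (SE 0.20, adjusted p = 0.00991) and Znhit3, which works with it, by 2.07 (SE 0.30, adjusted p = 0.00565). Ruvbl2, the partner of Ruvbl1, had a log2 fold change of -0.28 and did not pass. Of 8 genes of Cajal bodies and small RNA transport 3 rose and 0 fell. Coil, whose protein coilin scaffolds Cajal bodies, read 7.50, 7.08 and 6.62 in the mutant, against 4.65, 4.96 and 5.42 in wild type (log2 fold change 2.06, SE 0.27, adjusted p = 0.00401). Tgs1, which methylates the caps of small nuclear and nucleolar RNAs, rose by 2.09 (SE 0.26, adjusted p = 0.00297), and Gemin2, of the complex that builds spliceosomal particles, by 1.09 (SE 0.17, adjusted p = 0.00775). For Coil, Tgs1, Znhit3, Ruvbl1, Nufip1 and Gemin2 all mutant values lay above all wild-type values, and all 6 passed in every fit without 1 array. In the limma fit without variance shrinkage only Ruvbl1 of these kept the call (adjusted p = 0.0432). The others had adjusted p = 0.0619 to 0.0900 in that fit.

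Of 6 genes that free and trim snoRNAs, 1 rose and 1 fell. Dbr1, the enzyme that opens the looped introns from which most snoRNAs come, read 8.58, 8.29 and 7.14 in the mutant, against 4.89, 4.43 and 4.69 in wild type. It rose by 3.33 on the log2 scale (SE 0.35, 10.1-fold, adjusted p = 0.00151), the largest difference of the 32 genes, and passed in every fit without 1 array. It did not pass in the limma fit without variance shrinkage (adjusted p = 0.0584). Exosc10, the nuclear exosome nuclease that trims their 3′ ends, read 7.61, 7.59 and 7.44 in the mutant, against 8.13, 8.30 and 8.25 in wild type (log2 fold change -0.68, SE 0.13, adjusted p = 0.0223), and kept the call only without mutant replicate 3. The other 4 nucleases of the list, Parn, Xrn1, Xrn2 and Rnaseh1, had log2 fold changes between -0.59 and -0.14, and 0 passed, with Xrn1 the 1 gene of these at an unadjusted p under 0.05 in limma. Nudt16, whose product binds U8 and removes its cap, differed by 0.17 (SE 0.18, adjusted p = 0.717). Its means of 4.38 in the mutant and 4.21 in wild type lay below the receptor-gene level, which limits what the missing call means.

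**Figure D4:**
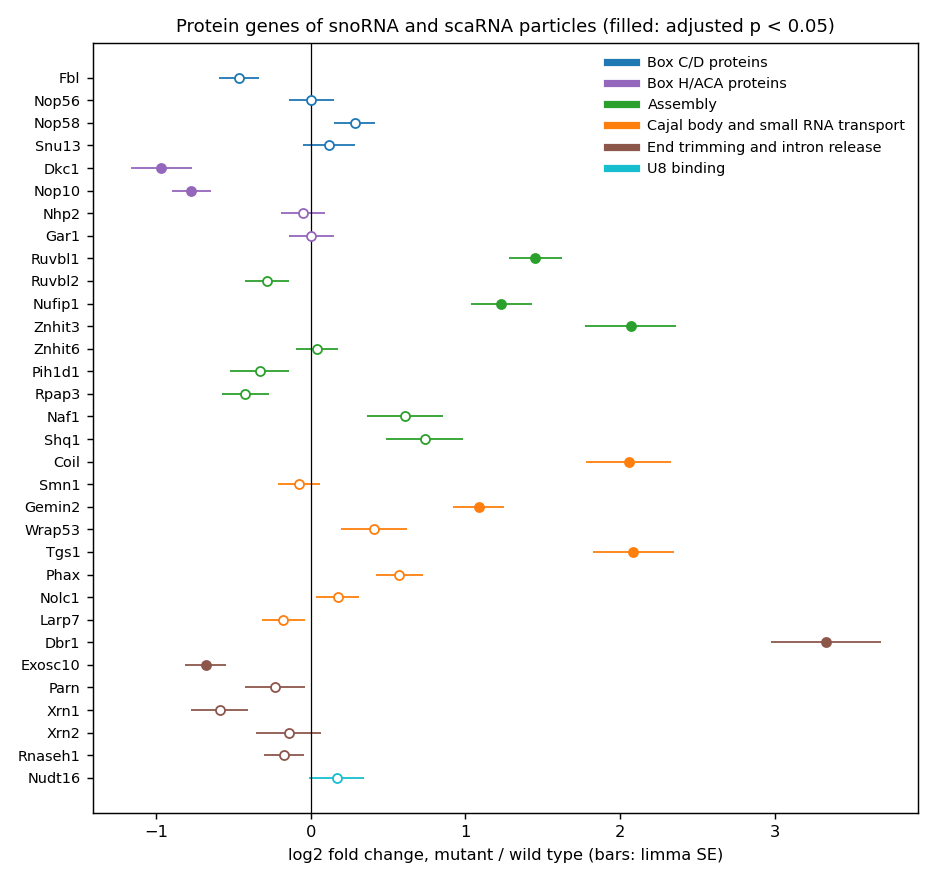
Log2 fold change (horizontal axis, mutant over wild type) of 32 protein genes, coloured by their role, with limma standard errors as bars and filled points for an adjusted p under 0.05. Filled points on the right are genes of assembly, Cajal bodies and intron release, with Dbr1 farthest at 3.33, and those on the left are Dkc1, Nop10 and Exosc10.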

How the data were processed

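RNA of 6 oocyte samples was amplified by a whole-transcript method and hybridised 1 sample to an array. The authors deposited log2 expression for each probe set, made with GCOS, Affymetrix Expression Console 1.1 and RMA, per the submitters' processing notes. No genome build of the probes is given in the sources used. Arrays give no read depth, so their number (3 per genotype) limits precision.

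The mutant was set against wild type in limma 3.58.1 under R 4.3.3, with lmFit and eBayes and genotype as the only term, two-sided, with Benjamini-Hochberg adjustment over all 35556 rows and a threshold of 0.05. The test was also run on simulated data, whose outcome is not given here. Alternatives changed the normalization, the variance prior, the filter, the probe set of a gene, the replicate block and the arrays left in. Gene names came from the platform annotation; 21789 rows named 1 gene, 1621 several and 12146 none here. All 54 members matched RefSeq genes (GRCm38.p6) by Entrez ID. A host was the shortest gene containing a member, predicted genes last; the planned requirement of the same strand could not be applied. Sequences are from RefSeq.

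Named genes were Marf1, members past the threshold, up to 8 members with the largest non-overlapping difference in each direction, members of hosts with 3 or more members or with a member past the threshold, Cajal body RNAs, and listed protein genes past the threshold; others were chosen after their values were seen. The members and lists were chosen with earlier results of these data known.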

Additional observations from a re-analysis of the deposited data

How the results depend on the processing

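The count of 9 lower members was 9 with median centring, quantile normalization, cyclic loess, a variance prior following the mean level or the lowest probe set of a gene, 8 with the replicate number as a block, 7 of the 15 testable members above the median level, 11 with 1 probe set per gene and 3 without variance shrinkage, and 6 to 8 without 1 array. The count of 0 higher members was 0 to 1 without 1 array and 0 otherwise. Lower hosts numbered 3, 1 with the replicate block and 0 to 2 without 1 array. Higher hosts numbered 2, 0 without shrinkage, 4 with cyclic loess and 1 to 5 without 1 array. Lower protein genes numbered 3, 5 with 1 probe set per gene and 0 to 2 without 1 array, and higher ones 7, 1 without shrinkage and 7 to 8 without 1 array. Without each array in turn (mutant replicates 1 to 3, then wild-type replicates 1 to 3) lower hosts were 1, 2, 2, 1, 0 and 0, higher hosts 1, 1, 5, 1, 1 and 1, and lower protein genes 2, 1, 2, 1, 1 and 0. Whether same-numbered samples were handled together is not stated in the labels. Their deviations from the group means correlated at 0.15, -0.10 and 0.03, against -0.22 to 0.18 for differently numbered pairs. With 3 samples a group these values cannot tell. With the replicate block Snora20 (adjusted p = 0.0667) and Snord14e (0.0683) lost the call and Snord104 (0.0475) gained it. The log2 fold change of Marf1 lay between -3.16 and -2.89 in these fits and passed in each. No named member reversed past the threshold. Over all probe sets 1700 were higher and 1065 lower as deposited (61.5% higher), and 2020 and 717 with cyclic loess (73.8%). The dim signal of most members limits what a missing call means.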
